A study of Homo sapiens with 10 samples.

Results

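Among 4 tumour cell lines regrown from MDA-MB-231 xenografts after SM-164, tumours T2 and T6 stood on one side of a large expression pattern and tumours T3 and T8 on the other. MDA-MB-231 is an established human line from a triple-negative breast cancer, and SM-164 is a Smac mimetic, a compound that antagonises the inhibitor of apoptosis (IAP) proteins. This division crosses the drug response labels: T2 and T3 are labelled resistant, T6 and T8 sensitive, so each side holds 1 tumour of each kind. The division was chosen by the measured values themselves, since the second principal component of these arrays set T2 and T6 against T3 and T8. For that reason the differences between the sides are given as a description with no p-value, and only other comparisons of the lines were tested. The 8 tumour arrays, 4 per side, are described over 14929 tested genes, beside 2 arrays of parental cells, so that all 10 arrays of the series are used.

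The T2, T6, T3 and T8 cells came from tumours grown in SCID mice, which lack T and B cells. The mice had received 5 mg/kg SM-164 intravenously on 5 days a week for 2 weeks, and cells were isolated once the treated tumours had grown back. The parental cells were cultured, had no SM-164 treatment stated, and are labelled sensitive. Each line stands for a single tumour, and no xenograft grown without SM-164 was among the arrays, so growth in the mouse and the drug cannot be told apart. Each line had 2 arrays. Nothing in the labels makes them separate cultures, so a p-value here rests on array-to-array spread that may be purely technical.

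IAP proteins such as XIAP and cIAP1, encoded by BIRC2, hold back caspases and steer the TNF receptor complex away from cell death. Smac mimetics remove that restraint, and in MDA-MB-231 cells killing is known to run through TNF made by the cells themselves. Xenograft cells also adapt to low oxygen, nutrient supply and the surrounding matrix, programmes read out by hypoxia, amino acid synthesis and collagen genes. Whether such adaptation bears on the differences between the sides was not tested.

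Each array had a median of 5.43 to 5.57 on the log2 scale over all probe sets. Pairs of arrays of the same line correlated at 0.996 to 0.998 over genes, arrays of different tumours on the same side at 0.990 to 0.995 and arrays of tumours on opposite sides at 0.979 to 0.994. The second component carried 30.2% of the variance, with T2 at -24.3 and -24.7, T6 at -13.3 and -12.8, T3 at 20.5 and 23.6, T8 at 6.41 and 6.84, and parental cells at 8.84 and 8.96. T2 and T3 were thus the outer lines and T6 and T8 the inner ones. VIM, the mesenchymal filament protein of this line, reached 14.1 to 14.4 on every array and CD44 reached 12.3 to 12.7. CDH1, the epithelial cadherin, lay at 4.47 to 5.46 and the progesterone receptor gene PGR at 3.78 to 4.20, under the log2 5 a gene had to reach on at least 2 arrays to be tested. ESR1 lay at 6.52 to 6.78, EPCAM at 8.13 to 9.25 and CD24 at 7.90 to 10.1, so these luminal and epithelial markers were above that limit on every array. The limit by itself does not show expression. The blood markers HBB and CD3E lay at 6.11 to 6.68 and 6.42 to 7.07, so ESR1 is not read as expressed.

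A gene was called separated when all 4 arrays of the T2/T6 side lay beyond all 4 arrays of the T3/T8 side and the means differed by at least log2 0.5. By this description 408 genes stood higher in T2/T6 and 503 lower, which is 2.73% and 3.37% of the genes tested. At a difference of at least log2 1 the counts were 79 and 89. Without any size limit the arrays of the sides did not overlap for 1264 genes higher in T2/T6 and 2012 lower. Cutting the same 8 arrays by drug response gave 17 separated genes higher in the resistant tumours and 85 lower. The T2/T6 division was taken from the values and the response labels were not. That choice favours larger counts for the T2/T6 division, so nothing is read from the contrast. Just inside the limit stood OSMR, a cytokine receptor, at a difference of 0.50, and just outside DIP2B, also at 0.50 when rounded. Among genes lower in T2/T6, BLTP1 stood just inside at -0.50 and CAB39 just outside at -0.50 when rounded. Further probe sets of the separated genes had the same sign in 333 of 345 cases for genes higher in T2/T6 and in 406 of 452 cases for genes lower. Their arrays also did not overlap, in the same direction, in fewer cases. These were 243 of 345 (70.4%) for genes higher and 247 of 452 (54.6%) for genes lower.

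The widest gaps between the sides belonged to genes with no single common role. ESM1, which encodes a secreted proteoglycan of endothelium and tumours, measured 4.43, 4.68, 4.34 and 4.28 in T2/T6, against 10.29, 10.68, 7.85 and 7.53 in T3/T8 and 4.30 and 4.34 in parental cells (log2). It was thus at the parental level in T2 and T6 and high in both other tumours, with a difference of -4.66 ± 0.11 (SE of the fit over arrays, n = 4 arrays from 2 tumours per side). This SE and those that follow leave out the spread between tumours of a side, which for ESM1 was 2.80 between T3 and T8. DCDC2, a tubulin-binding doublecortin protein, measured 7.55, 7.87, 8.20 and 8.03 in T2/T6, against 4.75, 4.75, 5.51 and 5.57 in T3/T8 and 4.68 and 4.64 in parental cells. Here T2 and T6 were the high lines, at a difference of 2.77 ± 0.09. DAPK1, a calmodulin-regulated kinase known as a positive mediator of cell death, measured 5.13, 5.33, 4.96 and 5.11 in T2/T6, against 7.43, 7.68, 7.59 and 7.50 in T3/T8. The parental cells held 6.85 and 6.78, between the sides but nearer to T3/T8, and the difference was -2.42 ± 0.09. DAPK1 differed little inside each side, by 0.19 ± 0.13 between T2 and T6 (limma adjusted p = 0.362) and by 0.01 ± 0.13 between T3 and T8 (limma adjusted p = 0.975). Picking genes by the gap between line means of the sides favours small differences inside a side. These values for DAPK1 are therefore a description.

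**Figure D1:**
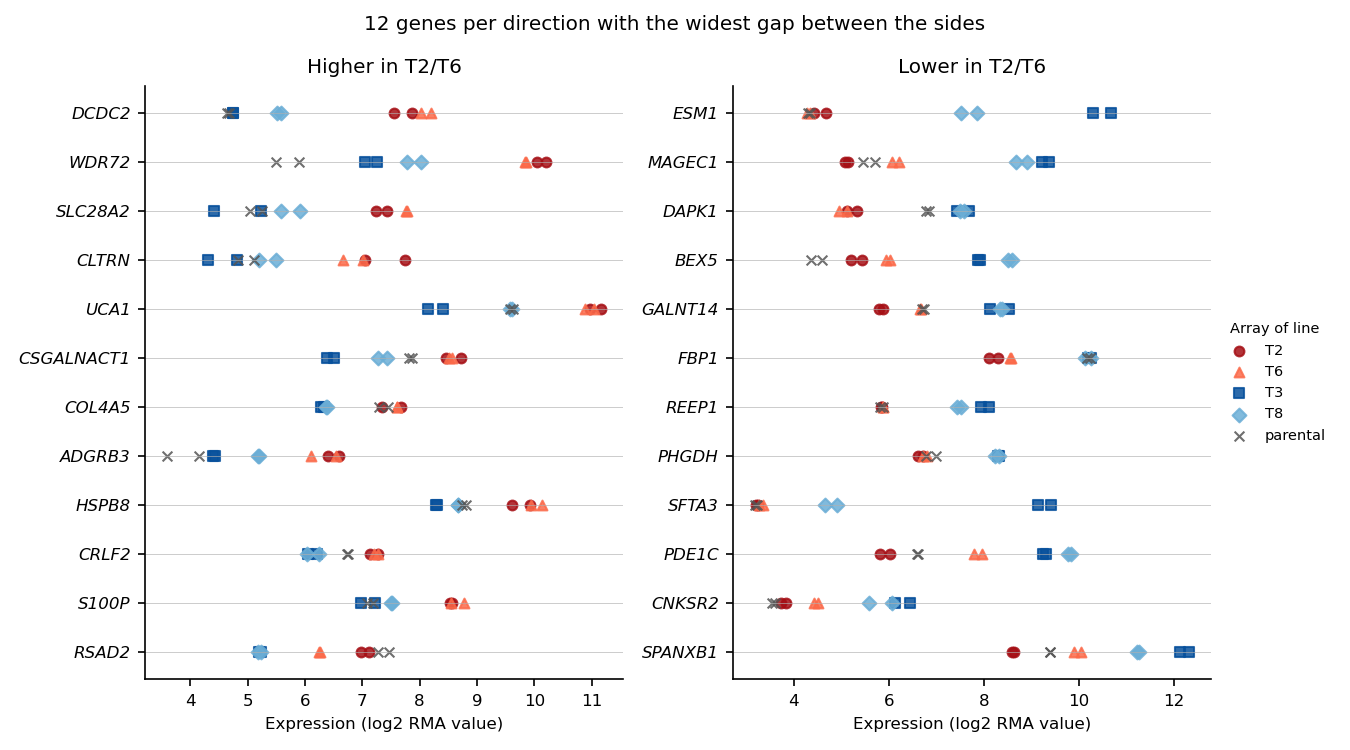
Expression on the log2 scale of the 12 genes per direction with the widest gap between the sides, 1 point per array, with T2 and T6 in red, T3 and T8 in blue and parental cells as grey crosses. The parental crosses sit on the T2/T6 points for ESM1 and REEP1 and on the T3/T8 points for FBP1. For S100P they sit among the T3 points and below the T8 points, and for WDR72 they lie outside both sides.

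The other genes higher in T2/T6 with wide gaps covered transport, matrix, signalling and innate immunity. WDR72, a WD-repeat protein needed for tooth enamel, measured 10.06, 10.21, 9.85 and 9.85 in T2/T6, against 7.26, 7.05, 8.03 and 7.78 in T3/T8 and 5.89 and 5.50 in parental cells, so all tumours lay above the parental line. UCA1, a long non-coding RNA first described in urothelial cancer, measured 10.97, 11.17, 10.88 and 11.04 in T2/T6, against 8.41, 8.15, 9.57 and 9.61 in T3/T8. Its T8 arrays matched the parental 9.58 and 9.62 while T3 lay below, by -1.31 ± 0.09 in T3 minus T8 (limma adjusted p = 3.98e-07). Differences of 1.09 to 2.27 separated SLC28A2 (a nucleoside transporter, 2.27), CLTRN (collectrin, 2.16), CSGALNACT1 (chondroitin sulfate synthesis, 1.67), ADGRB3 (an adhesion receptor, 1.61), RSAD2 (the antiviral enzyme viperin, 1.44), HSPB8 (a small heat shock protein, 1.43), S100P (a calcium-binding protein, 1.31), COL4A5 (a basement membrane collagen chain, 1.21) and CRLF2 (the receptor chain for TSLP, 1.09).

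Among the genes lower in T2/T6, SFTA3 varied most inside a side. It measured 3.24, 3.21, 3.27 and 3.35 in T2/T6, against 9.13, 9.41, 4.91 and 4.67 in T3/T8 and 3.19 and 3.22 in parental cells. The T3 arrays stood far above all others, and T3 exceeded T8 by 4.48 ± 0.15 (limma adjusted p = 2.33e-10). Only the T3 arrays reached log2 5, so SFTA3 was tested through the line where it was high. The others were MAGEC1 (a cancer-testis antigen, -3.41), PDE1C (a calmodulin-dependent phosphodiesterase, -2.64), BEX5 (-2.57), SPANXB1 (a sperm protein and cancer-testis antigen, -2.45), GALNT14 (an enzyme starting O-glycans, -2.10), CNKSR2 (a scaffold of Ras signalling, -1.94), REEP1 (an endoplasmic reticulum shaping protein, -1.89), FBP1 (the gluconeogenic bisphosphatase, -1.83) and PHGDH (the entry enzyme of serine synthesis, -1.59). FBP1 measured 8.30, 8.10, 8.57 and 8.55 in T2/T6, against 10.19, 10.26, 10.12 and 10.26 in T3/T8 and 10.16 and 10.24 in parental cells. It was thus lower in T2 and T6 than in every other array.

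Neighbouring genes differed the same way along several chromosomes, and the X held the largest share of separated genes of any chromosome. Of the 476 tested genes on chromosome X, 57 were separated higher in T2/T6 and 94 lower, together 31.7% of the chromosome against 6.10% of all tested genes. The X held 16.6% of the separated genes with a known chromosome while holding 3.19% of the tested genes. Of the 24 genes with the widest gaps, 7 lay on the X. Taking a running median over 21 neighbouring genes and keeping regions of at least 10 genes where it passed 0.25 gave 25 regions, 3 higher and 22 lower in T2/T6. They held 822 genes (5.51% of those with a position) and 247 of the separated genes (27.2%). These regions were drawn on the same differences, so their medians are a description.

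At the start of the X, 62 genes from PLCXD1, in the stretch shared with the Y, to SCML2 had a median difference of 0.53. In that region 43 genes had sides that did not overlap, all of them higher in T2/T6, and 35 were separated. Relative to parental cells the region's median was 0.11 in T2 and 0.10 in T6, against -0.52 in T3 and -0.24 in T8. The T2 and T6 lines thus sat near the parental level there and the T3 and T8 lines below it. Between T3 and T8, 26 of the 62 genes were called lower in T3 and 1 higher in limma at an adjusted p under 0.05, 41.9%, where 13.8% of all tested genes were lower; a low T3 itself brings genes into the region, so this is a description. CLTRN, CRLF2, and the run from CTPS2 to RBBP7, with differences of 0.56 to 1.04, belong to this region. A second, smaller region of 11 genes from PIM2, a survival kinase, to PRICKLE3 had a median difference of 0.43.

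Further along the X the direction turned. The 74 genes from RTL5 to RBM41 had a median difference of -0.50, the 94 genes from AMMECR1 to MAGEA6 of -0.40, and the last 20 genes, from TAFAZZIN to IL9R, of -0.46. In these regions 42, 49 and 16 genes had non-overlapping sides lower in T2/T6, against 2, 0 and 0 higher, where 13.5% and 8.47% of all genes were. Relative to parental cells the RTL5 to RBM41 median was -0.49 in T2 and -0.15 in T6, against 0.22 in T3 and 0.04 in T8. T2 was thus the lowest line on this part of the X, and T2 minus T6 was called lower for 43 of the 74 genes, 58.1%, where 6.38% of all tested genes were. A low T2 itself brings genes into such a region, so this share is a description. The called shares were 52.1% from AMMECR1 to MAGEA6 and 60.0% from TAFAZZIN to IL9R. BEX5 measured 5.44, 5.20, 5.94 and 6.03 in T2/T6, against 7.88, 7.92, 8.51 and 8.59 in T3/T8 and 4.37 and 4.59 in parental cells. It lay inside an unbroken run of 6 genes from ARMCX1 to ARMCX5, where the differences ran from -0.68 to -2.57. HMGN5, a nucleosome-binding protein, differed by -2.15 ± 0.10, and FAM133A by -1.64 ± 0.07.

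**Figure D2:**
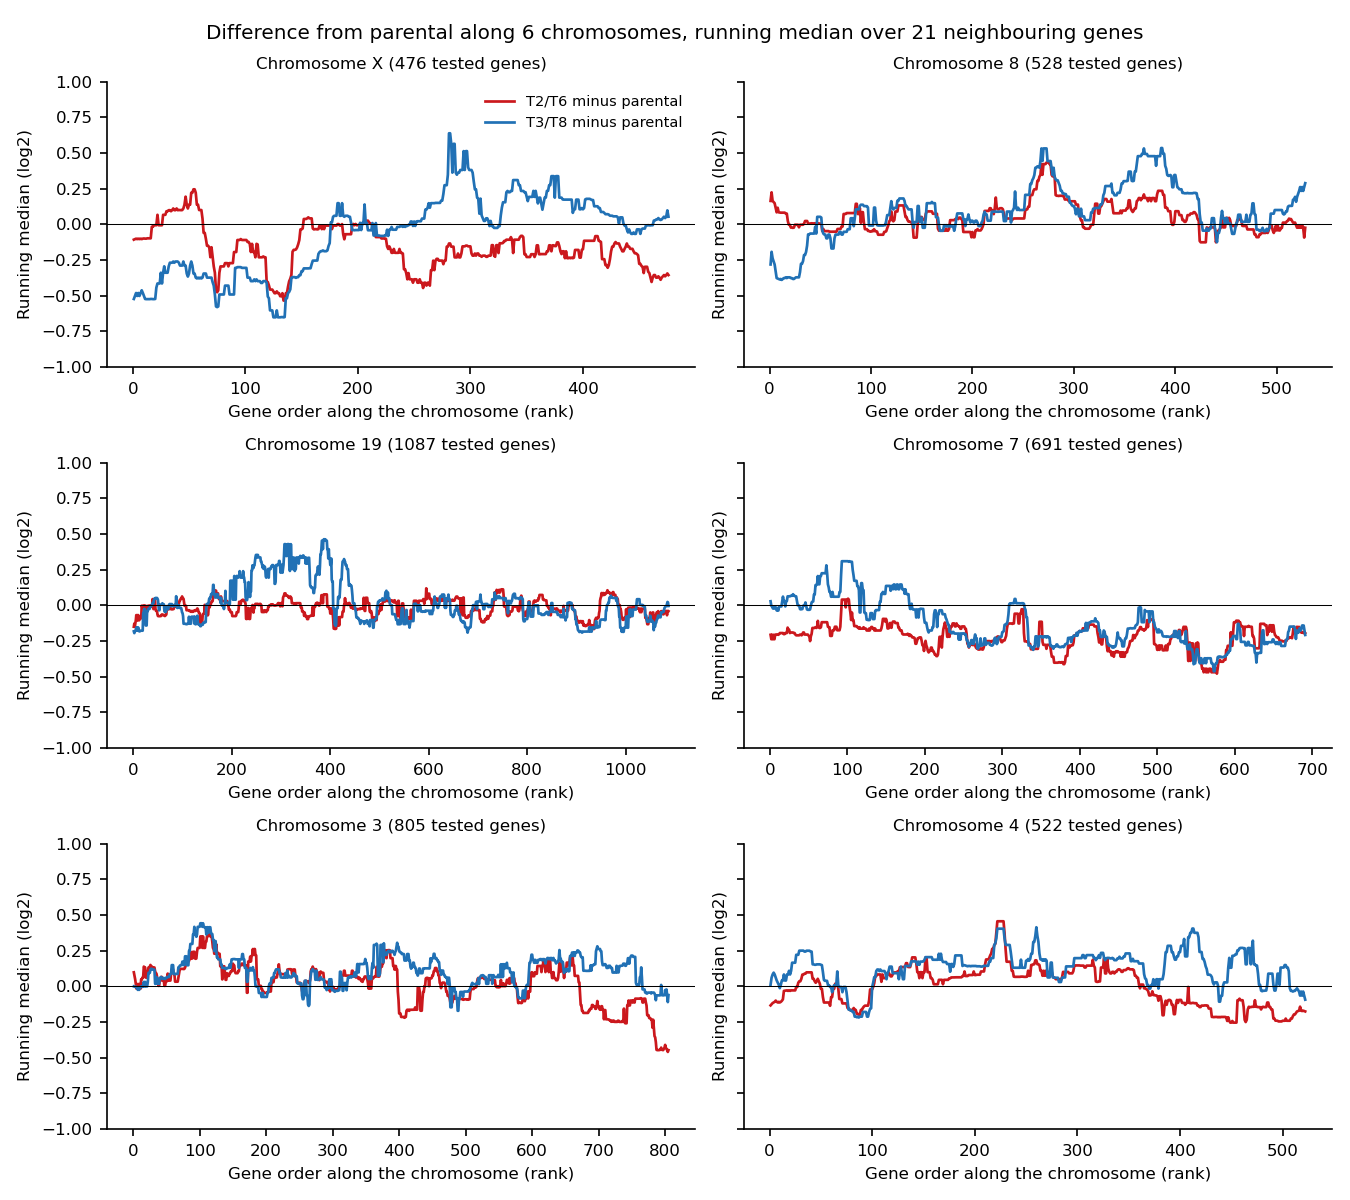
Running median over 21 neighbouring tested genes of the side mean minus the parental mean (log2), along 6 chromosomes in gene order, with T2/T6 in red and T3/T8 in blue. On chromosome X the blue line lies below the red at the left end and above it over the right part, and on chromosome 19 the blue line rises above zero over the regions named in the text while the red stays near it.

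XIAP, the caspase-inhibiting IAP protein and a target of SM-164, lies in the region from AMMECR1 to MAGEA6. It measured 9.15, 9.31, 9.95 and 9.81 in T2/T6, against 10.07, 10.36, 10.14 and 9.93 in T3/T8 and 9.86 and 9.46 in parental cells. The T6 and T8 arrays overlapped, so the gene was not separated, at a difference of -0.57 ± 0.09. T2 was the lowest line, at -0.65 ± 0.13 in T2 minus T6 (limma adjusted p = 0.00465), and all 5 further probe sets of XIAP had the same sign. With tumour T2 left out, the XIAP log2 difference was -0.25.

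On the autosomes the regions were mostly lower in T2/T6. The exception was the start of chromosome 8, where 19 genes from RPL23AP53 to ERI1 had a median difference of 0.57 and 15 had sides that did not overlap, all higher in T2/T6. Its median relative to parental cells was 0.08 in T2 and 0.02 in T6, against -0.36 in T3 and -0.30 in T8. Chromosome 19 held 3 regions, from S1PR2 to TMEM205 (33 genes, -0.33), from ELAVL3 to TEKTL1 (78 genes, -0.31) and from KLF2 to NXNL1 (27 genes, -0.41). In the last of them T2 stood at -0.02 and T6 at 0.09 relative to parental cells, against 0.51 in T3 and 0.36 in T8. KEAP1, the sensor that holds NRF2 in check, lies in the chromosome 19 region from S1PR2 to TMEM205 and differed by -0.44 ± 0.04.

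Chromosome 7 held the regions CYTH3 to ETV1 (22 genes, -0.46), HYCC1 to JAZF1 (27 genes, -0.32) and PDE1C to STK17A (36 genes, -0.40). CYCS, which encodes cytochrome c of the apoptosome, lies in the region HYCC1 to JAZF1 and differed by -0.32 ± 0.05. A run of 7 neighbours from EGFR to CCT6A, including PSPH, lay lower in T2/T6 by -0.42 to -1.08. EGFR itself measured 10.70, 10.88, 10.64 and 10.65 in T2/T6, against 11.24, 11.40, 11.03 and 10.90 in T3/T8 and 10.68 and 10.71 in parental cells. Its sides did not overlap by a small margin, and its difference of -0.43 ± 0.05 was below the size limit.

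Chromosome 3 held 4 lower regions, RIOX2 to PCNP (-0.44), LINC01208 to POLR2H (-0.38), VPS8 to DNAJB11 (-0.32) and MUC20 to LMLN (-0.29). In the last of these T2 and T6 were below parental cells, at -0.50 and -0.33, while T3 and T8 stood at -0.08 and -0.03. Chromosome 4 held BBS7 to GATB (61 genes, -0.35), MND1 to HPF1 (35 genes, -0.32) and SAP30 to MIR3945HG (22 genes, -0.29). On chromosome 6, CFAP206 to FBXL4 (24 genes, -0.40) stood at 0.06 in T2 and 0.17 in T6 relative to parental cells, against 0.68 in T3 and 0.46 in T8. Smaller lower regions were SNX3 to CDC40 on chromosome 6 (13 genes, -0.27), VAPA to FAM210A on chromosome 18 (21 genes, -0.35) and MGAT4A to EIF5B on chromosome 2 (10 genes, -0.28). The later part of chromosome 8 held TMEM74 to SAMD12 (13 genes, -0.34) and MAL2 to FBXO32 (20 genes, -0.29). MAL2 itself went against its region, at 1.66 ± 0.09 higher in T2/T6.

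**Figure D3:**
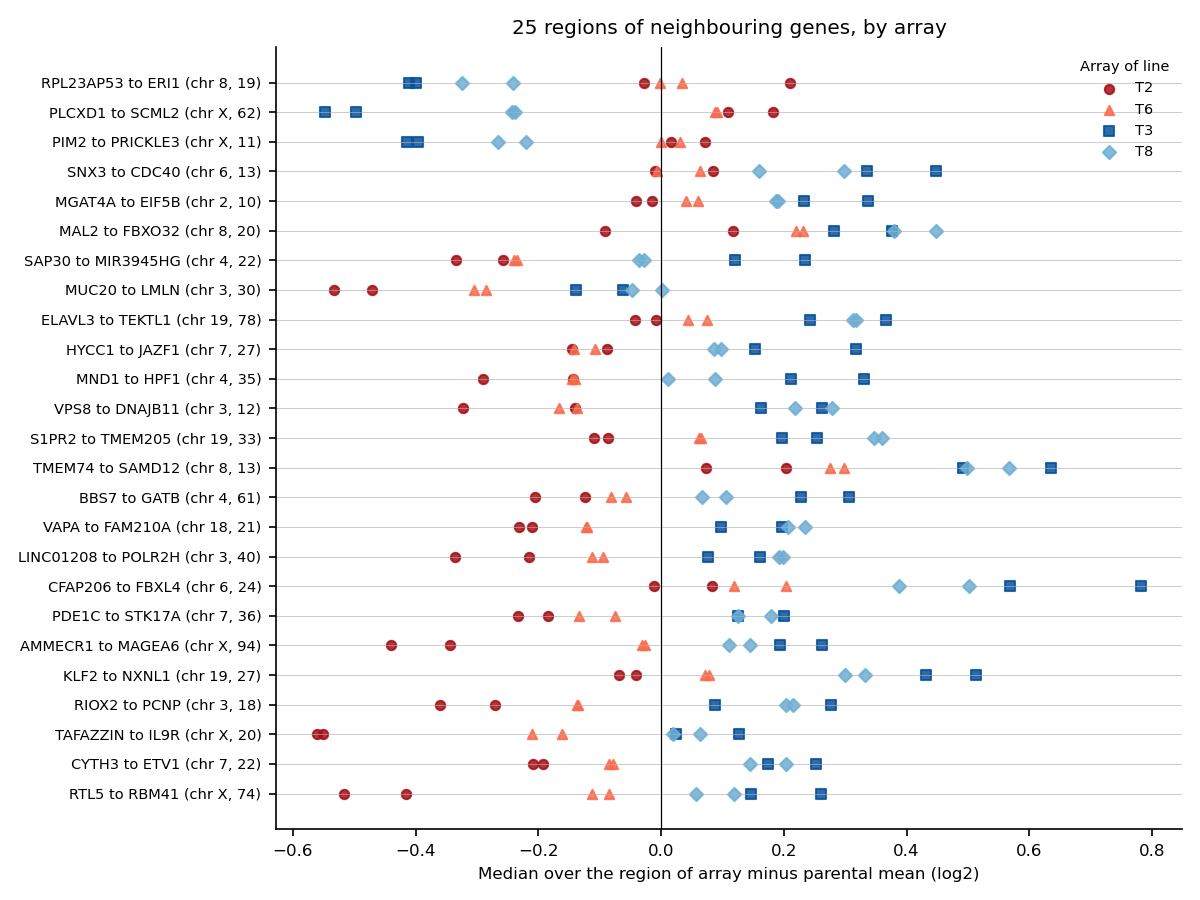
Median over each of 25 regions of an array's value minus the parental mean (log2), 1 point per array, with T2 and T6 in red and T3 and T8 in blue. The number in brackets after the chromosome is the number of genes, and the X regions from RTL5, AMMECR1 and TAFAZZIN show T2 lowest, with medians of -0.49, -0.36 and -0.56.

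By the unbroken-run rule, at least 5 neighbouring tested genes with sides that did not overlap in the same direction, 33 runs held 203 genes (1.36%). Of these runs 8 were higher in T2/T6 and 25 lower, with 9 on the X, 6 on chromosome 3, 5 on chromosome 19, 4 each on chromosomes 7 and 8, 2 on chromosome 18, and 1 each on chromosomes 2, 4 and 16. The longest, 11 genes from FBXO25 to DEFB1 on chromosome 8, differed by 0.11 to 1.19. The 9 genes from TUBB6 to CEP192 on chromosome 18 differed by -0.32 to -0.78. Chromosome 12 had no region but leaned one way, with 134 of 793 genes not overlapping and higher in T2/T6 and 26 lower (16.9% and 3.28%, against 8.47% and 13.5% of all genes).

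Interferon response genes differed almost entirely one way. Interferon-stimulated genes encode antiviral proteins and sensors switched on by interferon receptors or by nucleic acid sensing. Of 38 tested members, 17 were separated higher in T2/T6 (44.7% against 2.73% of all genes) and none lower, and the median difference of the list was 0.36, against -0.01 over all tested genes. OASL, an oligoadenylate synthetase-like antiviral protein, measured 10.66, 10.67, 9.89 and 9.85 in T2/T6, against 8.22, 8.10, 8.91 and 8.96 in T3/T8 and 9.60 and 9.50 in parental cells. The lines thus ordered as T2, T6, parental, T8 and T3, and the difference was 1.72 ± 0.05. IFIT1, a sensor of foreign RNA caps, measured 11.15, 11.25, 10.32 and 10.33 in T2/T6, against 9.24, 9.15, 9.75 and 9.59 in T3/T8 and 10.59 and 10.48 in parental cells, a difference of 1.33 ± 0.05. ISG15, a ubiquitin-like modifier, measured 13.14, 13.19, 12.56 and 12.66 in T2/T6, against 11.44, 11.38, 12.03 and 12.18 in T3/T8 and 12.45 and 12.38 in parental cells. Its sides did not overlap, and their means differed by 1.13 ± 0.04.

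RSAD2 lay below the parental cells in every tumour, at 6.98, 7.12, 6.24 and 6.27 in T2/T6, against 5.20, 5.23, 5.17 and 5.24 in T3/T8 and 7.46 and 7.27 in parental cells. OAS1, which makes the second messenger of RNase L, differed by 1.21 ± 0.09, DDX60 by 1.06 ± 0.07, ISG20 by 0.98 ± 0.06, IFIT2 by 0.94 ± 0.07 and IFIT3 by 0.89 ± 0.05. The RNA sensors IFIH1 (MDA5) and RIGI differed by 0.78 ± 0.10 and 0.64 ± 0.08. The remaining separated members were IFI44 (0.62), MX1 (0.84), MX2 (0.51), HERC5 (0.67), HERC6 (0.76) and USP18 (0.57).

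The interferon genes were graded inside the sides too, which is a description, since T2 and T3 were the outer lines of the component that gave the division. T2 minus T6 was called higher for 15 of the 38 and lower for 2 (backgrounds 3.08% and 6.38%), and T3 minus T8 was called lower for 15 and higher for none (backgrounds 13.8% and 4.66%). In 12 of the 17 separated members T2 and T3 were the outer lines, and in the other 5 T2 and T8 were. For OASL the limma adjusted p was 1.47e-05 in T2 minus T6 (0.80 ± 0.07) and 6.56e-06 in T3 minus T8 (-0.78 ± 0.07). The 4 tumours together were called higher than parental cells for 5 of the 38 genes and lower for 20 (backgrounds 25.5% and 16.8%). Resistant minus sensitive was called higher for 9 and lower for 3 (backgrounds 4.76% and 14.2%) over arrays. With line means as replicates no gene was called for the response, and 195 of all genes, in place of 6314, were for tumours minus parental. Of 17 class I and 13 class II antigen presentation genes 0 were separated; with 6.10% of all genes separated, nothing is read from counts of 0 in lists this short.

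**Figure D4:**
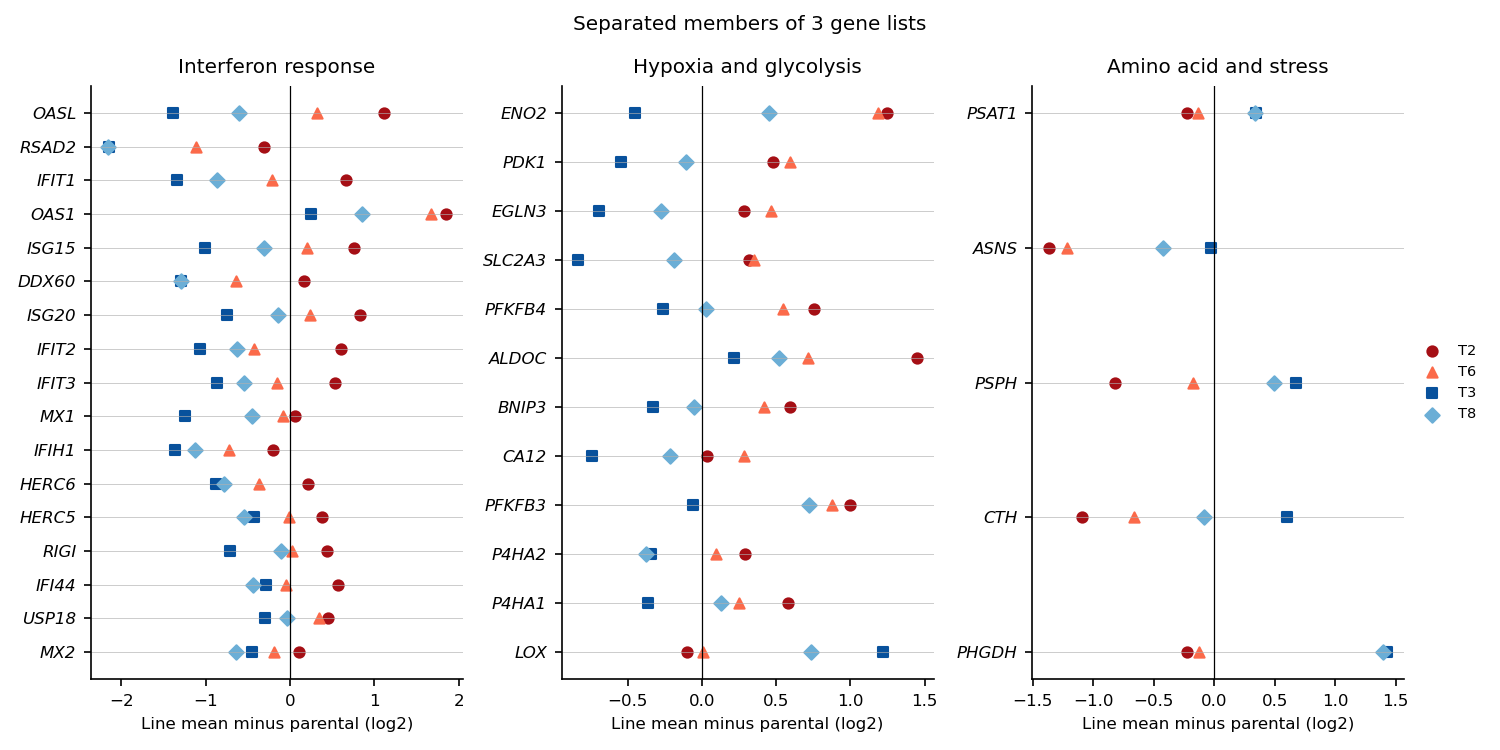
Line mean minus parental mean (log2) of the separated members of 3 gene lists, with T2 and T6 in red and T3 and T8 in blue. For the 17 interferon genes each red point lies right of each blue point of the same gene, and for the 5 amino acid genes each lies left.

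The promoters of 3 separated interferon genes are shown because they carry the letters of an interferon-stimulated response element, the site of the factors that act downstream of interferon. They run from 250 bases before to 50 after the gene start, in the RefSeq build GRCh38.p14, on the plus strand, at chr10:89392373-89392672 for IFIT1, chr1:1013247-1013546 for ISG15 and chr4:88456869-88457168 for HERC5. Capitals mark GAAANNGAAA or its reverse TTTCNNTTTC, and overlapping matches run together.
IFIT1: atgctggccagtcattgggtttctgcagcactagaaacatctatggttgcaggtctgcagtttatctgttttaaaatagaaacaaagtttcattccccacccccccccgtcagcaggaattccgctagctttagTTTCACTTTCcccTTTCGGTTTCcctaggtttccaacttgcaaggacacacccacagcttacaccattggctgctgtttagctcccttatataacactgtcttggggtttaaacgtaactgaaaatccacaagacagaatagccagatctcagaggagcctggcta
ISG15: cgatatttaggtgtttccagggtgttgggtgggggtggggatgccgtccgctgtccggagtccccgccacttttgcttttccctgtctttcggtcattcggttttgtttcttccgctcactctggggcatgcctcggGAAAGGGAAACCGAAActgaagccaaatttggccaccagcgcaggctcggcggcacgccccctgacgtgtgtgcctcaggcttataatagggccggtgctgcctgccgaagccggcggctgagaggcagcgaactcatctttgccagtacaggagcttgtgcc
HERC5: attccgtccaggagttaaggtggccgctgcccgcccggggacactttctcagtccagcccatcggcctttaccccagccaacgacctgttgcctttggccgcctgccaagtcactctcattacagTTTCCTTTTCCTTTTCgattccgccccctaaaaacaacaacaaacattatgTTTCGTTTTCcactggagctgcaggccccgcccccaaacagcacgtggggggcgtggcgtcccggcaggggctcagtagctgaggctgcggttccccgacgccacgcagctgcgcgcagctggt
Of the 17 separated members 13 had a promoter in the RefSeq table, and 9 of these held the motif on either strand (69.2%). Of the 21 tested members that were not separated, 17 had a promoter and 11 held it (64.7%). Over all 35116 promoters 3.57% held it, and over the tested genes with a promoter 2.73%. A match describes letters in this window only. The promoters of OAS1, RSAD2, RIGI and HERC6 held no match with this spacing, and other spacings of the repeats were not searched.

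Hypoxia and glycolysis genes that were separated stood higher in T2/T6, apart from LOX. Genes of this list are classic targets of hypoxia-inducible factors and run glucose uptake and breakdown. Of 35 tested members, 11 were separated higher in T2/T6 (31.4%, against 2.73% of all genes) and 1 lower (against 3.37%), with a median difference of 0.22. ENO2, the neuronal isoform of the glycolytic enzyme enolase, measured 11.73, 11.76, 11.73 and 11.63 in T2/T6, against 10.02, 10.07, 10.98 and 10.91 in T3/T8 and 10.50 and 10.49 in parental cells. T2 and T6 were close to each other and above parental cells, T3 was below parental cells, and the difference was 1.22 ± 0.04. PDK1, which closes pyruvate entry into the mitochondrion, differed by 0.86 ± 0.09, EGLN3, an oxygen sensor, by 0.86 ± 0.09, and SLC2A3, a glucose transporter, by 0.85 ± 0.08. The others higher in T2/T6 were BNIP3 (0.70), PFKFB4 (0.77), PFKFB3 (0.61), ALDOC (0.71), CA12 (0.63), P4HA1 (0.53) and P4HA2 (0.55). LOX, which cross-links collagen, was the member lower in T2/T6, at -1.02 ± 0.07. It measured 9.13, 9.37, 9.34 and 9.37 in T2/T6, against 10.44, 10.70, 10.07 and 10.10 in T3/T8 and 9.42 and 9.28 in parental cells. Between T3 and T8, 11 of the 35 were called lower in T3 and 3 higher (13.8% and 4.66% of all genes). T3 was an outer line of the component that gave the division, so these counts are a description.

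Of the 30 tested genes of the unfolded protein and amino acid stress list, 5 were separated lower in T2/T6 (16.7%, against 3.37% of all genes) and none higher. The 5 were PHGDH, PSPH, PSAT1, ASNS and CTH, enzymes known for making serine, asparagine and cysteine; the other members were not separated. PHGDH measured 6.71, 6.61, 6.71 and 6.80 in T2/T6, against 8.31, 8.33, 8.24 and 8.33 in T3/T8 and 6.78 and 6.99 in parental cells. T2 and T6 were at the parental level and T3 and T8 were close to each other above it, with no call in T2 minus T6 (-0.10 ± 0.10, limma adjusted p = 0.595) or T3 minus T8 (0.03 ± 0.10, limma adjusted p = 0.865). PHGDH was also among the genes picked for the widest gaps, which favours small differences inside a side, so this is a description. PSPH, the last enzyme of the serine pathway, measured 8.49, 8.71, 9.24 and 9.25 in T2/T6, against 10.01, 10.19, 9.90 and 9.93 in T3/T8 and 9.72 and 9.12 in parental cells. PSAT1, the middle enzyme, differed by -0.52 ± 0.07. ASNS, asparagine synthetase, measured 9.32, 9.40, 9.45 and 9.56 in T2/T6, against 10.62, 10.78, 10.30 and 10.30 in T3/T8 and 10.73 and 10.72 in parental cells, so here T2 and T6 lay below the parental level. CTH, which makes cysteine from cystathionine, differed by -1.13 ± 0.07. The median of the whole list was -0.07.

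Of 30 tested collagens and enzymes that modify them, 8 were separated higher in T2/T6 (26.7%, against 2.73% of all genes). Another 2 were lower (6.67%, against 3.37%) and 20 were not separated. The separated members include the enzymes P4HA1, P4HA2 and LOX given above. COL4A5 measured 7.35, 7.67, 7.60 and 7.60 in T2/T6, against 6.32, 6.28, 6.36 and 6.39 in T3/T8 and 7.45 and 7.30 in parental cells. Type VI collagen chains COL6A3 and COL6A1 differed by 1.10 ± 0.07 and 0.91 ± 0.06, and COL7A1, COL18A1 and COL5A1 by 0.63, 0.66 and 0.62. COL8A1 went the other way, at 9.34, 9.47, 10.02 and 10.18 in T2/T6, against 11.46, 11.62, 11.19 and 11.09 in T3/T8 and 10.68 and 10.51 in parental cells. LAMB1, a laminin chain, was higher in T2/T6 by 1.19 ± 0.07 and LAMB3, a chain of epithelial laminin, lower by -0.97 ± 0.05. TAGLN, an actin-binding protein of contractile cells, measured 10.91, 11.05, 10.72 and 10.81 in T2/T6, against 8.87, 8.79, 9.92 and 9.95 in T3/T8 and 7.51 and 7.56 in parental cells. SNAI2, a repressor of epithelial genes, was lower by -0.66 ± 0.06, with all tumours below parental cells. Of 17 tested metalloproteinases and inhibitors 1 was separated, lower in T2/T6 (5.88%, against 3.37% of all genes). It was MMP3, a matrix protease, at 5.98, 6.02, 6.11 and 6.15 in T2/T6, against 9.39, 9.48, 6.93 and 7.01 in T3/T8 and 4.58 and 4.86 in parental cells.

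In the TGF-beta, activin and BMP pathway 7 of 44 tested genes were separated higher in T2/T6 and 4 lower. These are 15.9% and 9.09%, against 2.73% and 3.37% of all genes. The activin and inhibin subunits went opposite ways. INHBB measured 8.86, 8.69, 8.63 and 8.84 in T2/T6, against 7.67, 7.23, 7.71 and 7.73 in T3/T8 and 8.49 and 8.43 in parental cells. INHBA measured 7.69, 7.83, 8.98 and 8.94 in T2/T6, against 10.39, 10.53, 9.05 and 9.09 in T3/T8 and 6.36 and 6.69 in parental cells. INHBA was thus above the parental level in every tumour and highest in T3, and T6 and T8 nearly met. Of the BMP targets, ID2 was higher in T2/T6 by 1.48 ± 0.09, SMAD6, an inhibitory SMAD, by 1.04 and ID1 by 0.71, whereas ID4 was lower by -1.95 ± 0.14. NOG, the BMP antagonist noggin, was lower by -1.07 ± 0.07, and the receptors BMPR1B and TGFBR3 were higher by 0.76 and 0.66. LTBP1, which stores latent TGF-beta in the matrix, was higher by 0.96 ± 0.06, and SKIL lower by -0.62.

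Genes described in metastatic sublines of MDA-MB-231 were split, with 8 of 31 tested separated higher in T2/T6 and 5 lower. These are 25.8% and 16.1%, against 2.73% and 3.37% of all genes. KYNU, an enzyme of tryptophan breakdown, measured 9.62, 9.77, 9.80 and 9.94 in T2/T6, against 7.42, 7.50, 8.71 and 8.70 in T3/T8 and 6.41 and 6.43 in parental cells. EREG, an EGFR ligand, measured 11.48, 11.86, 11.75 and 11.40 in T2/T6, against 9.61, 9.57, 10.81 and 10.58 in T3/T8 and 7.92 and 7.57 in parental cells. Both were above the parental level in all 4 tumours and lowest among them in T3. TNC, the matrix protein tenascin C, measured 5.94, 6.12, 7.07 and 7.17 in T2/T6, against 9.43, 9.63, 7.85 and 7.55 in T3/T8 and 7.15 and 7.18 in parental cells. IL11, FGF5 and PLAAT4 were higher in T2/T6 by 0.82, 0.75 and 1.19, and CXCR4, CCN2 and ST6GALNAC5 lower by -0.52, -0.77 and -0.62. TGFA, a second EGFR ligand, was higher by 0.76 ± 0.05, and no ERBB family gene was separated lower.

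Cancer-testis antigens, normally limited to the testis, had 19 measured members, of which 8 were tested. Of the 8, 3 were separated, all lower in T2/T6 and all on the X (37.5%, against 3.37% of all genes). MAGEC1 measured 5.15, 5.08, 6.22 and 6.08 in T2/T6, against 9.22, 9.37, 8.90 and 8.67 in T3/T8 and 5.45 and 5.71 in parental cells. SPANXB1 measured 8.59, 8.63, 9.90 and 10.03 in T2/T6, against 12.12, 12.32, 11.23 and 11.27 in T3/T8 and 9.40 and 9.40 in parental cells. MAGEA6 measured 4.29, 4.14, 4.18 and 4.09 in T2/T6, against 6.09, 7.16, 4.35 and 4.32 in T3/T8 and 5.08 and 4.79 in parental cells. For MAGEA6 the difference of -1.31 rested on T3, since T8 stood just above the T2/T6 arrays. Only its T3 arrays and parental array 1 reached log2 5, so MAGEA6 was tested through the side where it was high. The share of this list is therefore a description. MAGE and SPANX genes have near-identical copies on the X, so which copy these probe sets measured is uncertain.

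Of all tested genes 6.10% were separated, so in short lists a count of 0 carries little information. Among genes of the direct machinery of Smac mimetic killing, none of 9 tested IAP genes and antagonists, 19 genes of the TNF receptor complex and 12 caspase and apoptosome genes was separated. BIRC2, a main target of Smac mimetics, measured 12.72, 12.84, 12.49 and 12.53 in T2/T6, against 12.40, 12.48, 12.57 and 12.55 in T3/T8 and 12.27 and 12.22 in parental cells. TNF stayed between 4.67 and 5.15 on every array, with a difference of 0.10 ± 0.11. TNFRSF1A, its receptor, differed by 0.12 ± 0.04 and CASP8, the initiator caspase, by 0.33 ± 0.09. MAP3K7, a kinase of the receptor complex, differed by -0.45 ± 0.07 and its partner TAB2 by -0.36 ± 0.06, with sides that did not overlap but under the size limit. The sides of TRADD (0.19), TRAF1 (0.23), RBCK1 (0.18) and OTULIN (0.26), also of that complex, did not overlap in the other direction. LRIG1, a negative regulator of EGFR family receptors, measured 6.40, 6.68, 7.73 and 7.42 in T2/T6, against 6.70, 6.95, 7.92 and 7.68 in T3/T8 and 7.63 and 7.40 in parental cells. Its values followed the response labels, at -1.01 in resistant minus sensitive (limma adjusted p = 1.84e-05 over arrays), and crossed the T2/T6 and T3/T8 sides. With line means as replicates, 2 tumours per label, no gene was called for the response and the smallest adjusted p was 0.894. With T2 or T8 left out the LRIG1 difference between the sides was positive, at 0.26 and 0.23.

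Other cell death genes did differ between the sides. BCL2A1, an anti-apoptotic BCL2 family protein, measured 7.78, 8.06, 6.82 and 6.58 in T2/T6, against 5.10, 5.09, 6.12 and 5.81 in T3/T8 and 3.67 and 3.67 in parental cells. BIK, a pro-apoptotic member, was higher in T2/T6 by 0.95 ± 0.07, so the 2 separated of 17 tested BCL2 family genes have opposite known roles. These 2 are 11.8% of the list, where 2.73% of all genes were separated higher. TNFSF15, a TNF family ligand, measured 5.76, 5.97, 7.66 and 7.62 in T2/T6, against 8.78, 8.88, 7.88 and 7.70 in T3/T8 and 6.06 and 6.15 in parental cells. TNFRSF21, a death receptor, was higher by 0.52 ± 0.04. Of 30 tested NF-kB targets 3 were separated higher in T2/T6 and 2 lower (10% and 6.67%, against 2.73% and 3.37% of all genes). The chemokine CXCL8 measured 8.67, 8.80, 8.84 and 8.92 in T2/T6, against 10.40, 10.55, 9.81 and 9.78 in T3/T8 and 7.79 and 7.87 in parental cells. CXCL1, from the same chemokine family, was lower by -0.94 ± 0.11, and CXCL3 was higher by 0.53 ± 0.16.

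Of the ERK output genes 3 of 28 tested were separated, all lower in T2/T6: ETV5 (-0.70), FOS (-0.69) and ETV1 (-0.59). Of the Notch genes 3 of 23 were separated, all higher: the target HES4 (0.82) and the ligands JAG2 (0.56) and JAG1 (0.52). YAP and TEAD targets were mixed, with 2 of 28 higher and 4 lower, among them DLC1 (1.34) and CCN2 (-0.77). Cadherins were mixed too, with PCDH7 (1.52) higher and PCDHB2 (-1.23) lower in T2/T6. Of the 43 tested axon guidance genes 3 were higher and 5 lower, among them NTN4 (1.03), SEMA3E (-1.41) and NEO1 (-1.18). S100P and S100A2 were the 2 of 13 S100 genes that were separated, both higher in T2/T6. The cholesterol enzymes MSMO1 (-0.61) and NSDHL (-0.53) were lower, 2 of 18 tested. Over all genes 2.73% were separated higher and 3.37% lower, so nothing is read from the single members that follow. Of 40 proliferation genes CCNE1 was separated (0.57), of 36 Wnt genes LGR4 (0.73), of 20 p53 targets ZMAT3 (-0.79), of 17 NRF2 targets GCLM (0.51), of 25 epithelial genes CDH1 (0.68), and of 29 receptor tyrosine kinases outside the ERBB family 0.

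Markers of other cells gave no separated gene among 7 macrophage, 12 endothelial, 7 blood and 7 adipocyte and muscle markers tested, and 1 of 8 fibroblast and pericyte markers, CSPG4 (0.57). With 6.10% of all genes separated, nothing is read from such counts in lists this short. The summed log2 level of the macrophage markers was 42.1 to 43.5 in T2/T6, against 41.0 to 42.9 in T3/T8 and 44.3 to 45.0 in parental cells. For the endothelial markers it was 77.0 to 78.0 in T2/T6, against 75.7 to 80.1 in T3/T8 and 73.7 to 74.3 in parental cells. The fibroblast and pericyte sum was 50.4 to 52.2 in T2/T6, against 49.97 to 51.4 in T3/T8 and 51.5 to 51.6 in parental cells. Host cells of these tumours would be mouse cells and the markers are human genes, so the sums do not give the number of host cells. In these bulk samples a level cannot be split into number of cells and RNA per cell, and mouse cells left from the host were not measured separately.

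Inside each side the 2 tumours differed as well, and these differences were tested over all genes. T2 and T3 were the outer lines of the component that gave the division, so counts of these calls among separated genes, and the order of the lines in them, are a description. T2 minus T6 was called higher for 460 genes (3.08%) and lower for 952 (6.38%), so 32.6% of the calls were higher; after repeated quantile normalisation the share was 49.5%. T3 minus T8 was called higher for 696 genes (4.66%) and lower for 2054 (13.8%), a share of 25.3% higher against 44.6% after repeated quantile normalisation. Of the 408 genes separated higher in T2/T6, 99 were called higher in T2 than in T6 and 19 lower, and 216 were called lower in T3 than in T8 and 1 higher. Of the 503 separated lower, 239 were called lower in T2 than in T6 and 1 higher, and 137 were called higher in T3 than in T8 and 30 lower. Neither comparison called 132 of the 408 and 169 of the 503. T2 and T3 were the outer lines for 558 of the 911 separated genes (61.3%), T2 and T8 for 178, T6 and T3 for 150, and T6 and T8 for 25.

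**Figure D5:**
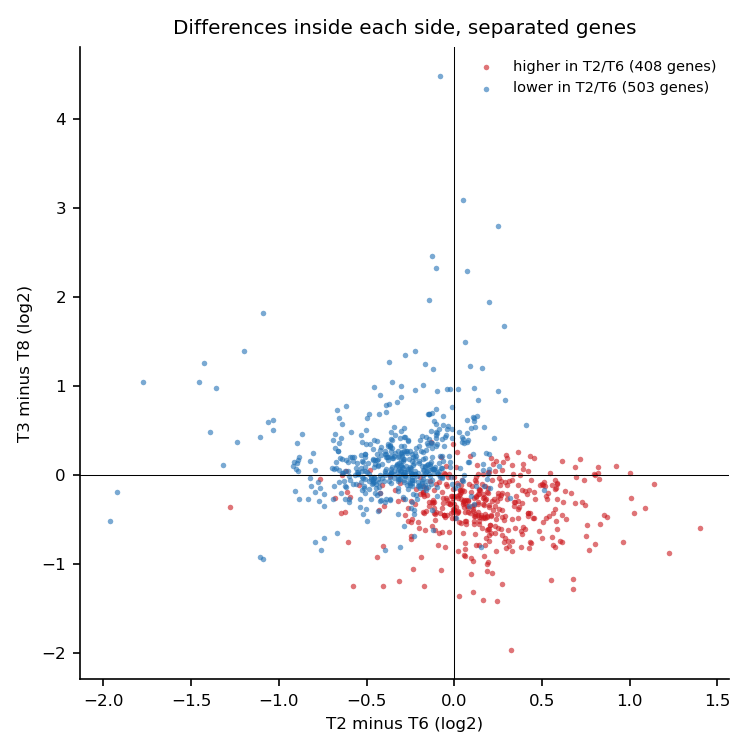
T2 minus T6 (horizontal, log2) against T3 minus T8 (vertical, log2) for the separated genes, with the 408 higher in T2/T6 in red and the 503 lower in blue. Red points lie mostly at the lower right and blue points mostly at the upper left.

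Among separated genes the largest called differences between T2 and T6 were TSPAN8, a tetraspanin (1.40 ± 0.09, limma adjusted p = 6.55e-07), BCL2A1 (1.22 ± 0.14) and the kinase LCK (1.14 ± 0.16) for higher in T2. For lower in T2 they were PDE1C (-1.96 ± 0.10, limma adjusted p = 8.85e-08), FAM133A (-1.92 ± 0.10), TNFSF15 (-1.78 ± 0.11), HMGN5 (-1.46 ± 0.14) and the adhesion receptor ADGRF5 (-1.43 ± 0.08). Between T3 and T8 the largest were SFTA3 (4.48 ± 0.15), SCEL, a cornified envelope protein (3.09 ± 0.16, limma adjusted p = 1.59e-08), ESM1 (2.80 ± 0.15), MMP3 (2.46 ± 0.12) and SEMA3E, a semaphorin (2.33 ± 0.15) for higher in T3. For lower in T3 they were TRBC1 (-1.97 ± 0.09), MAL2 (-1.41 ± 0.13), DMKN (-1.40 ± 0.17), the nuclear pore protein NUP210 (-1.36 ± 0.13) and UCA1 (-1.31 ± 0.09).

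The parental cells did not sit on a single side. Here a parental level near a side is near the mean of that side's lines, and it can still lie off each line. Of the genes separated higher in T2/T6, the parental level was within 0.3 of the T2/T6 mean and off the T3/T8 mean for 110. The reverse held for 113, with 56 between, 87 below both and 42 above both. Of the genes separated lower, it was near T2/T6 for 227, near T3/T8 for 140, between for 56, below both for 63 and above both for 17. The largest differences with parental cells near the T2/T6 mean were ESM1, SFTA3, MAGEC1, PDE1C and SPANXB1, all higher in T3 and T8 than in parental cells. For MAGEC1, PDE1C and SPANXB1 the parental level lay between T2 and T6 and off both. The PDE1C means were 5.92 in T2, 7.88 in T6 and 6.61 in parental cells, and those of SPANXB1 were 8.61, 9.97 and 9.40. The largest with parental cells near the T3/T8 mean were SLC28A2, CLTRN, FBP1, JCAD (1.72) and HKDC1 (1.51). HKDC1, a hexokinase-like protein, measured 9.56, 9.63, 9.41 and 9.40 in T2/T6, against 7.47, 7.52, 8.48 and 8.51 in T3/T8 and 8.14 and 8.14 in parental cells.

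The 4 tumours together were called higher than parental cells for 3801 genes (25.5%) and lower for 2513 (16.8%), so 60.2% of the calls were higher, against 48.3% after repeated quantile normalisation and 71.9% after centring each array on its median. With line means as replicates these 6314 calls came to 195. Of the 408 genes separated higher in T2/T6, 170 were called higher in the tumours and 116 lower; of the 503 separated lower, 219 were called higher and 92 lower. The separated genes furthest above parental cells were EREG (3.14), WDR72 (3.06), SEL1L3 (3.06), SLC14A1 (2.79) and BCL2A1 (2.75), and the furthest below were CYP1B1, a xenobiotic-metabolising enzyme (-2.87), STMN3 (-2.51), ADGRF1 (-2.46), CST6, a protease inhibitor (-2.29), and S100A2 (-2.03). Resistant minus sensitive was called higher for 711 genes (4.76%) and lower for 2126 (14.2%), with 25.1% of the calls higher, against 47.8% after repeated quantile normalisation. Of the 408 genes 31 were called higher in resistant tumours and 120 lower, and of the 503 genes 59 were called higher and 149 lower. With the line mean as the replicate, which leaves 2 tumours per label, no gene was called for the response, while 661 had an unadjusted p under 0.05. The separated genes with the largest response differences were SFTA3 (2.20), SCEL (1.57), ESM1 (1.52), MAGEA6 (1.18) and MMP3 (1.17) for higher in the resistant tumours, in each of which T3 was the highest line. For lower they were PDE1C (-1.24), FAM133A (-1.06), the calcium-binding protein CALB2 (-1.02), the nuclear factor AFF3 (-1.01) and the urea transporter SLC14A1 (-0.91).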

How the data were processed

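Total RNA of 5 lines was measured on 10 Affymetrix expression arrays, 2 per line. The authors deposited log2 values for 54675 probe sets on each array. The software, named per the submitters' processing notes, was affy with RMA, and limma; versions and settings are not given in the sources used here. RMA corrects background, quantile-normalises and summarises probe sets. Controls (62) were left out. Of the other probe sets, 41091 had 1 gene symbol in the platform annotation, 1801 several and 11721 none. Of those with 1 symbol, 41037 were matched by Entrez number to RefSeq GRCh38.p14 and took the RefSeq symbol. RefSeq also gave gene order and promoters. Each of 19775 genes was represented by its brightest probe set on average, and 14929 that reached log2 5 on at least 2 arrays were tested. ESM1, CNKSR2 and SFTA3 reached that level only on T3 or T8 arrays. Arrays have no read depth, so their number limit the precision.

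A model with 1 coefficient per line was fitted in limma 3.58.1 under R 4.3.3 (lmFit, eBayes with trend, 5 residual degrees of freedom), with Benjamini-Hochberg adjustment over all tested genes and a call at 0.05. It gave SEs for the sides and tests inside each side, for tumours against parental cells and for resistant against sensitive. The difference between arrays 1 and 2 correlated between lines at -0.39 to 0.50, so replicate numbers were not taken as pairs.

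The division, the gene lists and the naming rule were chosen with earlier results of these data known. Named genes were 12 per direction with the widest gap between line means, up to 5 separated members per described list (2 of the largest where none was separated), up to 5 separated genes per direction for each test, up to 5 near each parental side, and fixed genes, of which 2 were not analysed here. List members named beyond these, KEAP1, the region rule and the runs' example genes were chosen after their values were seen. Unbroken runs are given by their ends and range. Alternatives were another scaling, filters, probe set choices, arrays or tumours left out, no trend, a replicate block and line means as replicates.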

Additional observations from a re-analysis of the deposited data

Results flagged for a closer look

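The resistant minus sensitive difference was set side by side on the 2 sides of the division, as T2 minus T6 against T3 minus T8, for the 24 genes with the widest gaps, and limma called a difference between them for 15 (adjusted p under 0.05). Over all 14929 tested genes limma called such a difference for 1691. The 24 genes were picked for the gap between the same 4 lines, with T2 and T3 the outer lines of the component that gave the division. The choice favours such differences, so the count is a description. T2 minus T6 exceeded T3 minus T8 by 1.03 for WDR72, 1.35 for CLTRN, 1.42 for UCA1, 0.95 for CSGALNACT1, 0.96 for ADGRB3 and 0.78 for RSAD2. It fell short of T3 minus T8 for ESM1 (-2.55), MAGEC1 (-1.54), GALNT14 (-0.79), FBP1 (-0.40), REEP1 (-0.59), SFTA3 (-4.57), PDE1C (-1.44), CNKSR2 (-1.14) and SPANXB1 (-2.33).

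Of 296 sets of 4 arrays examined, 10 had an array set apart from the other 3. The cutoff used is passed by about 1 in 20 sets when all 4 values come from the same group. Each set here held 2 arrays from each of the 2 tumours of a side, and these tumours differ. That rate therefore does not apply, and the count of 10 is a description. The gap's share of the whole range of the 4 T2/T6 arrays was 0.854 for S100P, 0.909 for ETV1, 0.837 for ID2, 0.876 for LOX and 0.837 for STMN3. For the medians of the regions VPS8 to DNAJB11 and MND1 to HPF1 it was 0.844 and 0.966, with a T2 array apart in both. Among the T3/T8 arrays it was 0.843 for COL5A1, 0.872 for INHBB and 0.884 for TNF.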

How the results depend on the processing

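The separated counts stayed within 1.5 times of 408 higher and 503 lower under other scalings, filters and probe set choices. Quantile normalisation repeated gave 461 higher and 405 lower, and centring gave 350 higher and 594 lower, so 53.2% and 37.1% of separated genes were higher in T2/T6 against 44.8% as reported. Leaving out single arrays gave 384 to 448 higher and 442 to 631 lower. With tumour T2 left out 299 genes were lower and with T6 left out 940; with T8 left out 785 were higher. Requiring log2 1 left 79 higher and 89 lower, and requiring every pair of line means to differ by log2 0.5 left 154 and 131. T2 minus T6 calls (1412) were 776 with centred medians, 922 without less specific probe sets, 886 without a trend and 1230 with a replicate block, and 428 to 1631 with 1 array left out, under the count by more than 1.5 times without T2 array 1 (777) and without either T6 array. T3 minus T8 calls (2750) ranged from 1234 to 3186 with 1 array left out, lowest without either T8 array or T3 array 1, and were 2526 with a replicate block. Tumours minus parental calls (6314) ranged from 4099, without parental array 2, to 6877, and were 6051 with a replicate block and 195 with line means as replicates. Resistant minus sensitive calls (2837) ranged from 1389 to 3535, lowest without either T6 array, T8 array 1 or T3 array 1, and were 2500 with a replicate block and 0 with line means, where the smallest adjusted p was 0.894. Of the named genes 2018 alternative values moved by less than the replicate SD, 400 moved by more and 4 changed sign. These were the TNF log2 difference, at -0.029 without tumour T2 and -0.00673 without T8, and the LRIG1 log2 difference, at 0.26 and 0.23. Interferon members separated higher numbered 13 to 19 over the alternatives (17), hypoxia members 8 to 14 (11 as reported), collagens and their enzymes 4 to 11 (8), TGF-beta pathway genes 3 to 8 (7) and genes of metastatic sublines 5 to 13 (8). Members separated lower numbered 3 to 7 for amino acid stress (5), 2 to 5 for the TGF-beta pathway (4) and 3 to 7 for metastatic sublines (5). The region PLCXD1 to SCML2 ranged from 0.40 to 0.67 and RTL5 to RBM41 from -0.73 to -0.28, alternatives chosen after seeing the data. The cause of these shifts was not tested beyond the arrays or genes each alternative removes.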
